A study of Mus musculus with 78 samples.

Results

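A set of 36 genes of DNA replication and mitosis, listed by name, is described here, and 35 of them were measured, among 17097 genes with a probe set of their own. For each gene the probe set with the highest mean over all 78 arrays was taken, among those annotated to that gene alone. Of the 35 genes, 9 are the replication genes Mcm2 to Mcm7, Pcna, Rrm1 and Rrm2, 8 are other genes of S phase entry (Tyms, Cdc6, Cdt1, Gins2, Pole, Prim1, Ccne1 and Ccne2) and 18 are mitotic. The level of the cyclin gene Ccnb1 was not analysed here. The RNA was endothelium-enriched RNA rinsed out of both common carotid arteries of 39 mice, the left (LCA) and the right (RCA), with 1 array for each. The LCA of every mouse had been partially ligated, an operation that lowers and disturbs its flow, and the RCA of the same animal was the control artery. Mice were given atorvastatin, a cholesterol-lowering statin, at 10 mg/kg/day or vehicle by daily oral dosing from 2 days before surgery. Arteries were taken after 12 h, 24 h, 48 h or 2 weeks from different mice at each time, 5 mice per treatment and time (vehicle mice 1 to 5, atorvastatin mice 6 to 10), except 4 atorvastatin mice at 48 h (mice 6 to 9). The sources used here do not give strain, genotype, sex or age.

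A dividing cell first loads the MCM helicase onto its DNA with the help of Cdc6 and Cdt1, and then copies the DNA with polymerases held by the sliding clamp Pcna and fed by ribonucleotide reductase (Rrm1 and Rrm2). Later the cyclin A and cyclin B partners of Cdk1 drive mitosis, in which Aurora kinases, kinesins and spindle checkpoint proteins separate the chromosomes. Genes of S phase entry are known targets of E2F transcription factors, and many mitotic genes are known targets of a repressor and activator system that binds CHR and CCAAT elements. Endothelial cells of an adult artery under steady laminar flow divide rarely.

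The promoters of 6 of these genes are printed because they show the motifs of both classes of genes, for members whose values by mouse are given below. Of the 36 genes, 28 were matched by symbol to RefSeq start sites (build GRCm38.p6), and the 250 bases before the start are shown, with motif matches in capitals. The windows are Mcm5 at chr8:75109259-75109508 (plus strand), Mcm6 at chr1:128359706-128359955 (minus strand), Rrm2 at chr12:24708004-24708253 (plus strand), Cdk1 at chr10:69352913-69353162 (minus strand), Ccnb2 at chr9:70421555-70421804 (minus strand) and Top2a at chr11:99024190-99024439 (minus strand). The first 3 belong to replication genes and the last 3 to mitotic genes.
Mcm5: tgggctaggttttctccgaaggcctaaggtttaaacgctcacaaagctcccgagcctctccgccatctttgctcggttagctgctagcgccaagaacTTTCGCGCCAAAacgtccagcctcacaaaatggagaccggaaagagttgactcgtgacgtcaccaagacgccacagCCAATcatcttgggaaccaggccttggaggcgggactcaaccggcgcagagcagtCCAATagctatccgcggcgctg
Mcm6: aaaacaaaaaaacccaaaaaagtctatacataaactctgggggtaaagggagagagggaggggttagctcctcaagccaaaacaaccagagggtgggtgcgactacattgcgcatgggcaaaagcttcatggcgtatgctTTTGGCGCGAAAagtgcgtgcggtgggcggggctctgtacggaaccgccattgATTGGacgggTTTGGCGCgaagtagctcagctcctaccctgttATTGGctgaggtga
Rrm2: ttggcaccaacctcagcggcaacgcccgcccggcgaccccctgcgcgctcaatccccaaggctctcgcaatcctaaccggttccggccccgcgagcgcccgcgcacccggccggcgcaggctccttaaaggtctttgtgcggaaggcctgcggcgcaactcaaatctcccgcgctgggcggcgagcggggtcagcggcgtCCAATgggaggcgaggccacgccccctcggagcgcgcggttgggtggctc
Cdk1: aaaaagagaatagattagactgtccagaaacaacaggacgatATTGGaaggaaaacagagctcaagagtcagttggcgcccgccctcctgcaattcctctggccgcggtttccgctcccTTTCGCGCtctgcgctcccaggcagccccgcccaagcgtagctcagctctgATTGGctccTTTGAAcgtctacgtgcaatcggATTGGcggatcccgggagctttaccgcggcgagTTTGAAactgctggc
Ccnb2: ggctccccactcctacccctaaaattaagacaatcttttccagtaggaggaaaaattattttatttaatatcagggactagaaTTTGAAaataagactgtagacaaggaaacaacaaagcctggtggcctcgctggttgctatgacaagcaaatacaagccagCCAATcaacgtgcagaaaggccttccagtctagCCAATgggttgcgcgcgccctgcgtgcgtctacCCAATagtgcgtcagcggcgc
Top2a: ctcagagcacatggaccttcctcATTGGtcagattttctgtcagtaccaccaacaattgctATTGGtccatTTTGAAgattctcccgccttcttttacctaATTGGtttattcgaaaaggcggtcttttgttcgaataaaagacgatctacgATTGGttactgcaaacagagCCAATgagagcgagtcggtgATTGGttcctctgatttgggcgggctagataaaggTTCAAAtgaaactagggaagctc
Matches were sought on both strands for 3 motifs, namely E2F (TTTCCCGC, TTTGGCGC, TTTCGCGC or TTTGCCGC), CHR (TTTGAA) and CCAAT. The search covered 300 bases, that is the 250 shown and 50 after the start, and overlapping matches were counted apart. An E2F match stood in 6 of 13 promoters of S phase genes and in 1 of 15 mitotic promoters (Cdk1), against 2.26% of 32851 windows in the whole table. The CHR letters stood in 1 of 13 S phase promoters (Mcm2) and in 10 of 15 mitotic promoters, against 17.9% of all windows. CCAAT stood in 9 of 13 and 13 of 15, against 37.4%. Mcm5 and Mcm6 each hold a pair of overlapping E2F matches, which read as a single run of capitals, whereas the Rrm2 window holds CCAAT alone. The Cdt1 window holds a single E2F match, after the start site. These letters describe the windows, and binding of a factor was not measured.

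Expression values are RMA values on the log2 scale, on which a step of 1 is a doubling, and the array medians lay between 4.59 and 4.77. The 12 endothelial marker genes had a mean level between 8.95 and 9.98 in every artery, so the defining markers of the labelled cell type were present. The 12 macrophage, 9 neutrophil, 6 T cell and 7 smooth muscle markers are given beside the results they move with; the scale has no true zero, so no marker can be said to be at 0. The RNA comes from whole flushes, so that fewer cells of a type and less RNA per cell cannot be told apart. Each artery difference below is LCA minus RCA within a mouse, given as the mean over mice with the standard error (SE) of a limma fit over all 39 mice and a Benjamini-Hochberg adjusted p over 17097 genes. A gene is called where that p is under 0.05. The fit shares 1 estimate of the spread over 8 groups of mice. Where the mice of a group differ more, as in many of these genes at 48 h, its SE is smaller than their own spread would give. Where they differ less, its SE is larger than their own spread would give.

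At 12 h and at 24 h no replication or mitotic gene passed the test between the arteries. In vehicle-treated mice limma called 0 of 35 at 12 h (0 at an unadjusted p under 0.05), against 1.5% of all genes, and their median difference was -0.05. At 24 h it called 0 of 35 again (2 at an unadjusted p under 0.05, Aurka and Cenpe), against 8.97% of all genes, with a median of 0.15. The largest difference at 24 h was that of the Aurora kinase gene Aurka (1.02, adjusted p = 0.136). Atorvastatin-treated mice gave 0 of 35 at both times (0 at an unadjusted p under 0.05 at either), against 0.988% and 8.19% of all genes. The ranges ran from -0.65 (Cdt1) to 0.64 (Bub1b) at 12 h and from -0.61 (Mcm5) to 1.02 at 24 h with vehicle.

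**Figure D1:**
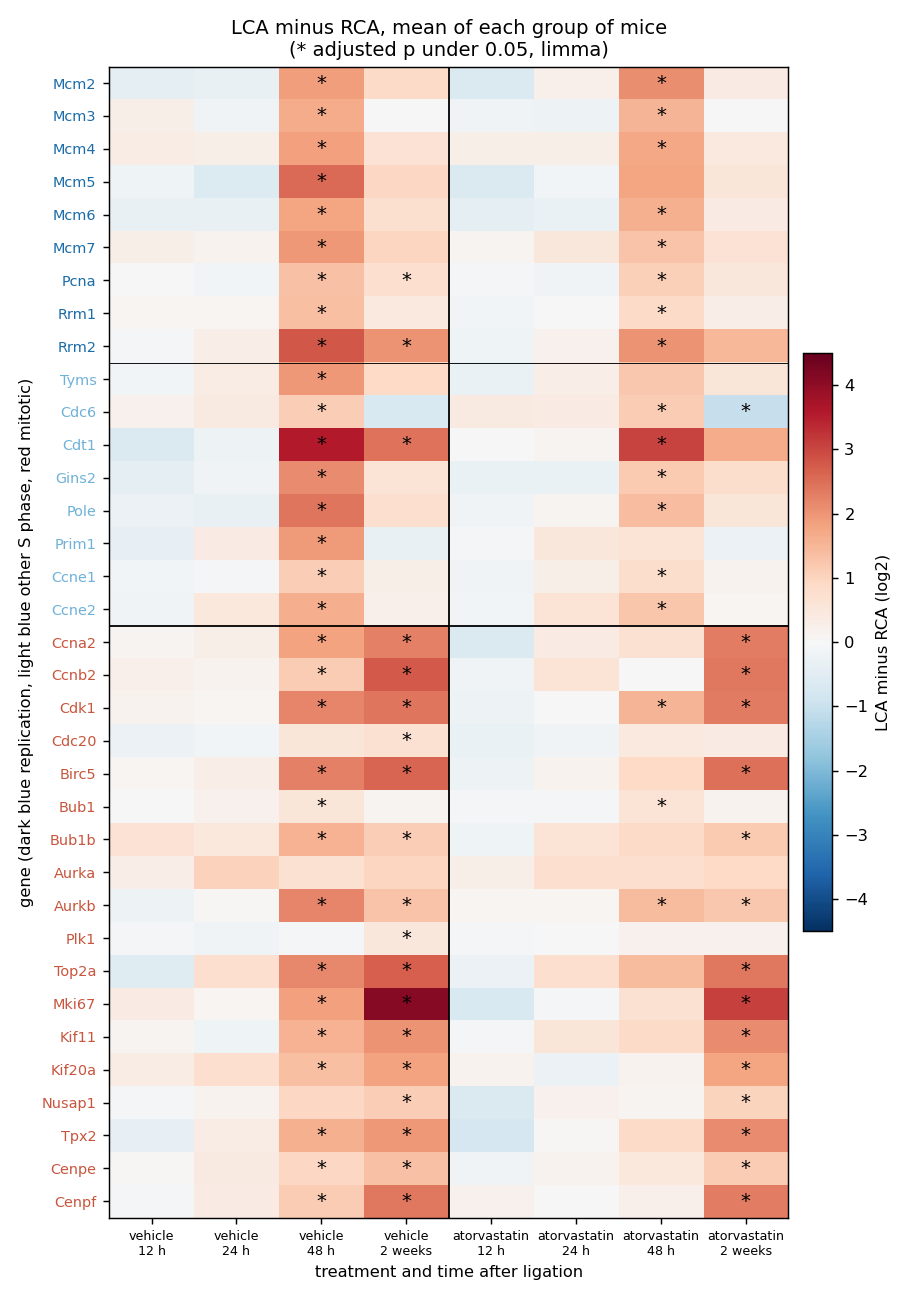
Mean LCA minus RCA difference (colour, log2) of the 35 genes (rows) in the 8 groups of mice (columns), with a star where the adjusted p was under 0.05. In vehicle-treated mice 17 of 17 replication and S phase genes carry a star at 48 h and 3 of 17 at 2 weeks, while 14 and 16 of 18 mitotic genes do; in atorvastatin-treated mice the starred gene at 2 weeks among the S phase genes is Cdc6, with a negative difference.

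At 48 h in vehicle-treated mice the whole replication set was higher in the ligated artery. Of 17 replication and S phase entry genes 17 were higher and 0 lower, and of 18 mitotic genes 14 were higher and 0 lower, against 13.7% of all genes called higher and 11.7% lower. The median difference was 1.9 for the S phase genes and 1.46 for the mitotic genes, against -0.06 over all genes tested. The range ran from -0.08 for Plk1 to 3.56 for Cdt1.

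All 6 subunits of the MCM helicase, the motor that unwinds DNA at the fork, were higher, between 1.67 and 2.56. Mcm5 in vehicle mice 1 to 5 read 9.3, 8.34, 9.21, 5.96 and 9.3 in the LCA and 6.08, 5.72, 5.66, 6.3 and 5.53 in the RCA. Thus 4 LCA values stood far above every RCA value, and that of mouse 4 lay inside the RCA range. The difference was 2.56 (SE 0.6, adjusted p = 0.00155). Mcm6 read 9.89, 8.74, 9.7, 7.38 and 9.7 in the LCA against 7.26, 7.42, 7.38, 7.3 and 7.21 in the RCA, a difference of 1.77 (SE 0.3, adjusted p = 4.15e-05). The RCA values lay close together, and the LCA value of mouse 4 alone fell among them. The others were Mcm2 (1.9), Mcm3 (1.67), Mcm4 (1.85) and Mcm7 (1.96), and for Mcm3 and Mcm7 every LCA value lay above every RCA value.

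The licensing factor gene Cdt1, whose protein helps load the helicase, had the largest difference of all 35 genes. Its LCA values were 10.19, 8.77, 10.06, 5.91 and 10.09 and its RCA values 5.3, 6.2, 3.66, 6.24 and 5.78 in mice 1 to 5. The difference was 3.56 (SE 0.77, adjusted p = 0.000698), or 11.8-fold, with mouse 4 again apart. Its partner in loading, Cdc6, moved less: the LCA read 9.12, 7.57, 8.34, 6.23 and 8.32 and the RCA 6.53, 7.0, 6.54, 6.63 and 7.4, a difference of 1.1 (SE 0.28, adjusted p = 0.0039). The arteries overlapped for both genes. Gins2, a subunit of the complex that activates the helicase, was higher by 2.12, with every LCA value above every RCA value.

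Ribonucleotide reductase makes deoxynucleotides, and its S phase subunit gene Rrm2 had LCA values of 9.05, 7.09, 8.4, 4.69 and 8.64 against 4.81, 4.63, 4.06, 5.49 and 4.86 in the RCA. That difference was 2.8 (SE 0.59, adjusted p = 0.00051), or 6.98-fold. The partner subunit Rrm1 (1.34) and the thymidylate synthase gene Tyms (1.95) were higher as well. The sliding clamp gene Pcna, abundant in both arteries, read 11.79, 10.93, 11.58, 9.77 and 11.54 in the LCA and 9.86, 9.69, 9.74, 9.95 and 9.83 in the RCA. Its difference of 1.31 (SE 0.21, adjusted p = 2.68e-05) was one of the smaller ones, yet the RCA values lay so close together that 4 of 5 LCA values cleared them. The polymerase epsilon gene Pole (2.41) and the primase gene Prim1 (1.91) were higher, Prim1 without overlap of the arteries.

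The cyclin E genes start S phase. Ccne1 read 6.51, 4.89, 5.94, 4.32 and 6.63 in the LCA and 4.34, 4.58, 4.57, 4.72 and 4.52 in the RCA, and its difference was 1.11 (SE 0.24, adjusted p = 0.000615). Here mice 1, 3 and 5 stood clear of the RCA range, mouse 2 by less and mouse 4 not at all. Ccne2 was higher by 1.63.

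Among the genes that drive entry into mitosis, the kinase gene Cdk1 had LCA values of 7.73, 6.1, 7.41, 3.7 and 7.49 and RCA values of 4.28, 4.53, 3.96, 4.79 and 3.81, a difference of 2.21 (SE 0.46, adjusted p = 0.00048). In mouse 4 it was lower in the LCA than in the RCA. The cyclin genes Ccna2 (1.79) and Ccnb2 (1.13, SE 0.36, adjusted p = 0.019) were higher. Ccnb2 read 7.38, 6.8, 7.21, 5.19 and 7.6 in the LCA and 5.8, 5.69, 4.74, 6.25 and 6.03 in the RCA, and in mouse 4 the RCA value was the higher.

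Survivin (Birc5) and Aurora B (Aurkb) belong to the chromosomal passenger complex, which corrects attachments of chromosomes to the spindle. Birc5 read 8.26, 6.55, 7.87, 5.51 and 8.08 in the LCA and 5.26, 5.8, 4.19, 5.54 and 4.16 in the RCA, a difference of 2.27 (SE 0.44, adjusted p = 0.000232). Aurkb read 7.43, 5.3, 6.43, 3.84 and 7.01 against 3.62, 4.2, 3.39, 4.32 and 3.45, a difference of 2.2 (SE 0.44, adjusted p = 0.000329). In both genes the LCA values of mice 1, 2, 3 and 5 were above the RCA range, mouse 2 by the least, and that of mouse 4 was within it. The related kinase genes Aurka (0.7, adjusted p = 0.236) and Plk1 (-0.08, adjusted p = 0.699) did not pass the test.

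For chromosome structure, the topoisomerase gene Top2a, whose enzyme untangles sister DNA, read 8.47, 6.89, 8.29, 4.7 and 8.43 in the LCA and 5.78, 5.09, 4.12, 6.35 and 4.55 in the RCA, a difference of 2.18 (SE 0.62, adjusted p = 0.00869). The proliferation marker Mki67 read 10.91, 9.88, 10.71, 8.54 and 10.85 in the LCA and 8.9, 8.5, 6.31, 9.34 and 8.58 in the RCA, a difference of 1.85 (SE 0.68, adjusted p = 0.0406). The Mki67 difference was largest in mouse 3, which had the lowest RCA value, while the other 4 RCA values ran from 8.5 to 9.34. The kinetochore motor gene Cenpe read 6.39, 5.04, 5.35, 4.8 and 5.81 against 4.56, 4.56, 3.78, 4.91 and 4.97, a difference of 0.92 (SE 0.19, adjusted p = 0.000418). Of the other spindle genes, Kif11 (1.55), Kif20a (1.37), Tpx2 (1.6) and Cenpf (1.15) were higher and Nusap1 (0.94, adjusted p = 0.0528) missed the threshold. The checkpoint genes Bub1 (0.56), above the array median on 3 of 78 arrays, and Bub1b (1.56) were higher, and their target Cdc20 (0.53, adjusted p = 0.0669) was not called.

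Vehicle mouse 4 stood apart at 48 h, with 8 of 35 genes higher in its LCA than in its RCA, against 33 to 35 in each of the other 4 mice. With all 5 mice, 5 of 35 genes had every LCA value above every RCA value, beside 4.01% of all genes. Without mouse 4 limma called 34 of the 35 genes, and 5003 of all 17097 genes in either direction. The mitotic count fell from 14 to 8 without mouse 3 and to 9 without mouse 5, and it was 8 when the number in the sample title code was used as a block. Those fits called 2970, 2807 and 2848 of all 17097 genes. A fit to the 5 mice alone, which rests on their own spread, called 6 of 35, all of them S phase genes. That fit called 1436 of all 17097 genes. The Mki67 call was lost without mouse 1, 2, 3 or 5, and the Ccnb2 call without mouse 1, 3 or 5.

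Markers of blood cells differed between the arteries in the same samples. Of 12 macrophage markers 8 were higher in the LCA at 48 h and 0 lower, with a mean level of 6.79 to 7.46 in the LCA and 4.03 to 6.46 in the RCA. Of 9 neutrophil markers 6 were higher and 0 lower, with mean levels of 3.49 to 7.18 and 3.49 to 4.11. Smooth muscle markers were 1 higher and 0 lower of 7, fibroblast markers 0 higher and 3 lower of 8, and of 12 endothelial markers 2 were higher and 5 lower. In mouse 4 the mean difference was 0.66 over the macrophage markers and -0.09 over the neutrophil markers, each the lowest of the 5 mice. The same mouse had the highest T cell means, 4.35 for its LCA and 5.15 for its RCA, against 3.45 to 3.86 in both arteries of the other 4 mice, and its RCA also had the highest mitotic mean of the 5 control arteries (5.51). Limma called 0 of 6 T cell markers (0 at an unadjusted p under 0.05). In atorvastatin mouse 8 at 48 h, an RCA mitotic mean of 5.65 stood beside an RCA T cell mean of 3.76. The part of these cells in the result was not tested. The log2 difference between the Gapdh control probe sets at the 3' and 5' ends, which grows with RNA degradation, was 3.37 to 4.45 in the LCA and 4.15 to 4.66 in the RCA. It was lower in the LCA in every mouse but mouse 2. At 24 h with vehicle it was 4.43 to 5.59 in the LCA and 3.63 to 4.2 in the RCA, higher in the LCA of every mouse. With atorvastatin it was higher in the LCA at 24 h in every mouse but mouse 6. At 48 h it was higher there in mice 7 and 8 and lower in mice 6 and 9. The part of RNA quality in the results was not tested.

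At 2 weeks in vehicle-treated mice the mitotic genes were higher in the ligated artery, and most replication genes were no longer called. Of 18 mitotic genes 16 were higher and 0 lower, with a median difference of 1.88, against 10.8% of all genes called higher and 10.2% lower. Of 17 S phase genes 3 were higher (Cdt1, Rrm2 and Pcna) and 0 lower, with a median of 0.72. Over all genes tested the median was -0.06.

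Mki67 had the largest difference of any of these genes at any time. Its LCA values were 9.86, 9.97, 9.95, 10.19 and 10.22 and its RCA values 4.46, 7.6, 6.47, 6.3 and 4.87, a difference of 4.1 (SE 0.68, adjusted p = 1.88e-05), or 17.1-fold. The LCA values all lay between 9.86 and 10.22, and the RCA values were spread widely below them. Top2a read 6.6, 6.53, 6.62, 7.15 and 6.56 in the LCA and 3.7, 4.96, 4.34, 3.95 and 3.08 in the RCA, a difference of 2.68 (SE 0.62, adjusted p = 0.00159). With the probe sets of second highest mean, 5 of the 19 calls in this group were lost (Aurkb, Bub1b, Cdt1, Nusap1 and Top2a). Gins2 was then called.

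Cdk1 read 6.37, 5.55, 5.96, 6.44 and 5.75 in the LCA against 3.51, 3.71, 3.72, 3.98 and 3.11 in the RCA, a difference of 2.41 (SE 0.46, adjusted p = 0.000162). Its mitotic cyclin Ccnb2 read 6.49, 7.04, 6.89, 7.15 and 7.62 against 4.37, 4.14, 4.64, 4.24 and 4.0, a difference of 2.76 (SE 0.36, adjusted p = 3.7e-07). In neither gene did the arteries overlap, and no mouse stood apart as mouse 4 had at 48 h. Ccna2 was higher by 2.26.

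In the passenger complex, Birc5 read 6.34, 6.33, 6.85, 7.32 and 7.0 in the LCA and 4.02, 4.32, 4.23, 4.38 and 3.82 in the RCA, a difference of 2.62 (SE 0.44, adjusted p = 2.77e-05). Aurkb, at 4.77, 4.72, 4.56, 5.42 and 4.27 against 3.52, 3.89, 3.28, 3.43 and 3.23, was nearer to the threshold (1.28, SE 0.44, adjusted p = 0.0366). Its call was lost without mouse 1, 3, 4 or 5, although the arteries did not overlap. The polo kinase gene Plk1 (0.51, adjusted p = 0.00657), Cdc20 (0.67) and Nusap1 (1.1) were called here and not at 48 h, but the change between these times did not pass the test (adjusted p = 0.0807, 0.884 and 0.931). Plk1 was above the array median on 0 of 78 arrays and so was left out, untested, by the filter on low values, and its call was lost in a fit to the 5 mice alone, and without mouse 1 or 3. The call of Nusap1 was lost without mouse 1, 3, 4 or 5 and with its second probe set, and that of Cdc20 without mouse 2 or 3. Aurka (0.98, adjusted p = 0.0955) and Bub1 (0.13, adjusted p = 0.638) were the mitotic genes that did not pass.

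Cenpe read 4.98, 5.37, 5.41, 6.02 and 5.29 in the LCA and 3.87, 4.3, 4.0, 4.33 and 3.92 in the RCA, a difference of 1.33 (SE 0.19, adjusted p = 1.8e-06). The other spindle and kinetochore genes Kif11 (2.01), Kif20a (1.81), Tpx2 (1.94) and Cenpf (2.38) were all higher, with no overlap of the arteries. Over the 35 genes, 26 had every LCA value above every RCA value, beside 7.89% of all genes.

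Limma called 0 of 6 MCM genes at 2 weeks (3 at an unadjusted p under 0.05), but 4 of 6 (Mcm2, Mcm4, Mcm6 and Mcm7) in a fit to the 5 mice alone, and in those 4 genes every LCA value lay above every RCA value. The fit to the 5 mice alone called 3133 of all 17097 genes. Mcm5 read 5.22, 6.64, 6.36, 6.27 and 5.98 in the LCA and 5.73, 5.82, 4.49, 5.5 and 4.33 in the RCA, a difference of 0.92 (SE 0.6, adjusted p = 0.289). Mcm6 read 7.46, 7.86, 7.36, 7.69 and 7.54 against 6.52, 7.3, 6.88, 6.62 and 6.97, a difference of 0.72 (SE 0.3, adjusted p = 0.0849). The arteries overlapped for Mcm5 but not for Mcm6, whose 5 LCA values all lay above the RCA values. The mean difference of Mcm6 was smaller than at 48 h, when 1 LCA value had fallen among the RCA values. Mcm3 differed by -0.01 (SE 0.3, adjusted p = 0.981) and was higher in the LCA in 1 of 5 mice.

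Pcna, Rrm2 and Cdt1 were the 3 S phase genes that passed the test at 2 weeks. Pcna read 10.08, 10.28, 10.26, 10.33 and 10.11 in the LCA and 9.37, 9.66, 9.41, 9.57 and 9.36 in the RCA, a difference of 0.74 (SE 0.21, adjusted p = 0.0109). Rrm2 read 6.24, 5.27, 6.03, 6.68 and 5.94 against 4.02, 4.16, 3.83, 4.23 and 3.77, a difference of 2.03 (SE 0.59, adjusted p = 0.0114). Cdt1 read 7.07, 7.11, 7.21, 7.57 and 6.61 against 4.28, 5.38, 5.35, 3.29 and 5.0, a difference of 2.45 (SE 0.77, adjusted p = 0.0201). In all 3 genes every LCA value exceeded every RCA value, as also in Mcm2, Mcm4, Mcm6, Mcm7, Tyms, Gins2 and Pole, which were not called, and the call of Cdt1 was lost without mouse 1 or 4. Ccne1 read 4.78, 4.91, 4.7, 4.47 and 4.61 in the LCA and 4.13, 4.23, 4.69, 4.7 and 4.43 in the RCA, a difference of 0.26 (SE 0.24, adjusted p = 0.475), so that the arteries overlapped for the cyclin E gene.

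Cdc6 went the other way, with LCA values of 5.69, 5.96, 6.17, 5.93 and 5.63 all below the RCA values of 6.92, 6.62, 6.29, 6.66 and 6.25. Its difference of -0.67 (SE 0.28, adjusted p = 0.0904) missed the threshold in this fit. A fit to the 5 mice alone called it lower, among 12 S phase genes called in all, beside 3133 of all 17097 genes. Prim1 (-0.34, adjusted p = 0.46) was also below its control on average.

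Markers of other cell types were higher in the LCA at 2 weeks. Of 12 macrophage markers 11 were higher, with a mean level of 8.04 to 8.71 in the LCA and 3.47 to 5.75 in the RCA. Of 6 T cell markers 4 were higher (4.45 to 6.07 against 3.66 to 4.96), and of 7 smooth muscle markers 7 were higher (5.95 to 10.06 against 5.41 to 6.53). Endothelial markers were 3 higher and 4 lower of 12, with LCA levels of 9.36 to 9.65. Mouse 2 had the lowest smooth muscle difference (-0.3, against 2.47 to 4.19) and also the lowest mitotic mean difference (1.27, against 1.7 to 2.14). With atorvastatin at 2 weeks, mouse 6 had the lowest smooth muscle difference (2.99), but its mitotic mean difference of 1.86 was below only that of mouse 7. With vehicle, B cell markers were 1 higher of 4 and neutrophil markers 0 higher of 9 (1 at an unadjusted p under 0.05). Fibroblast markers were 2 higher and 4 lower of 8. The part of these cells in the result was not tested.

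**Figure D2:**
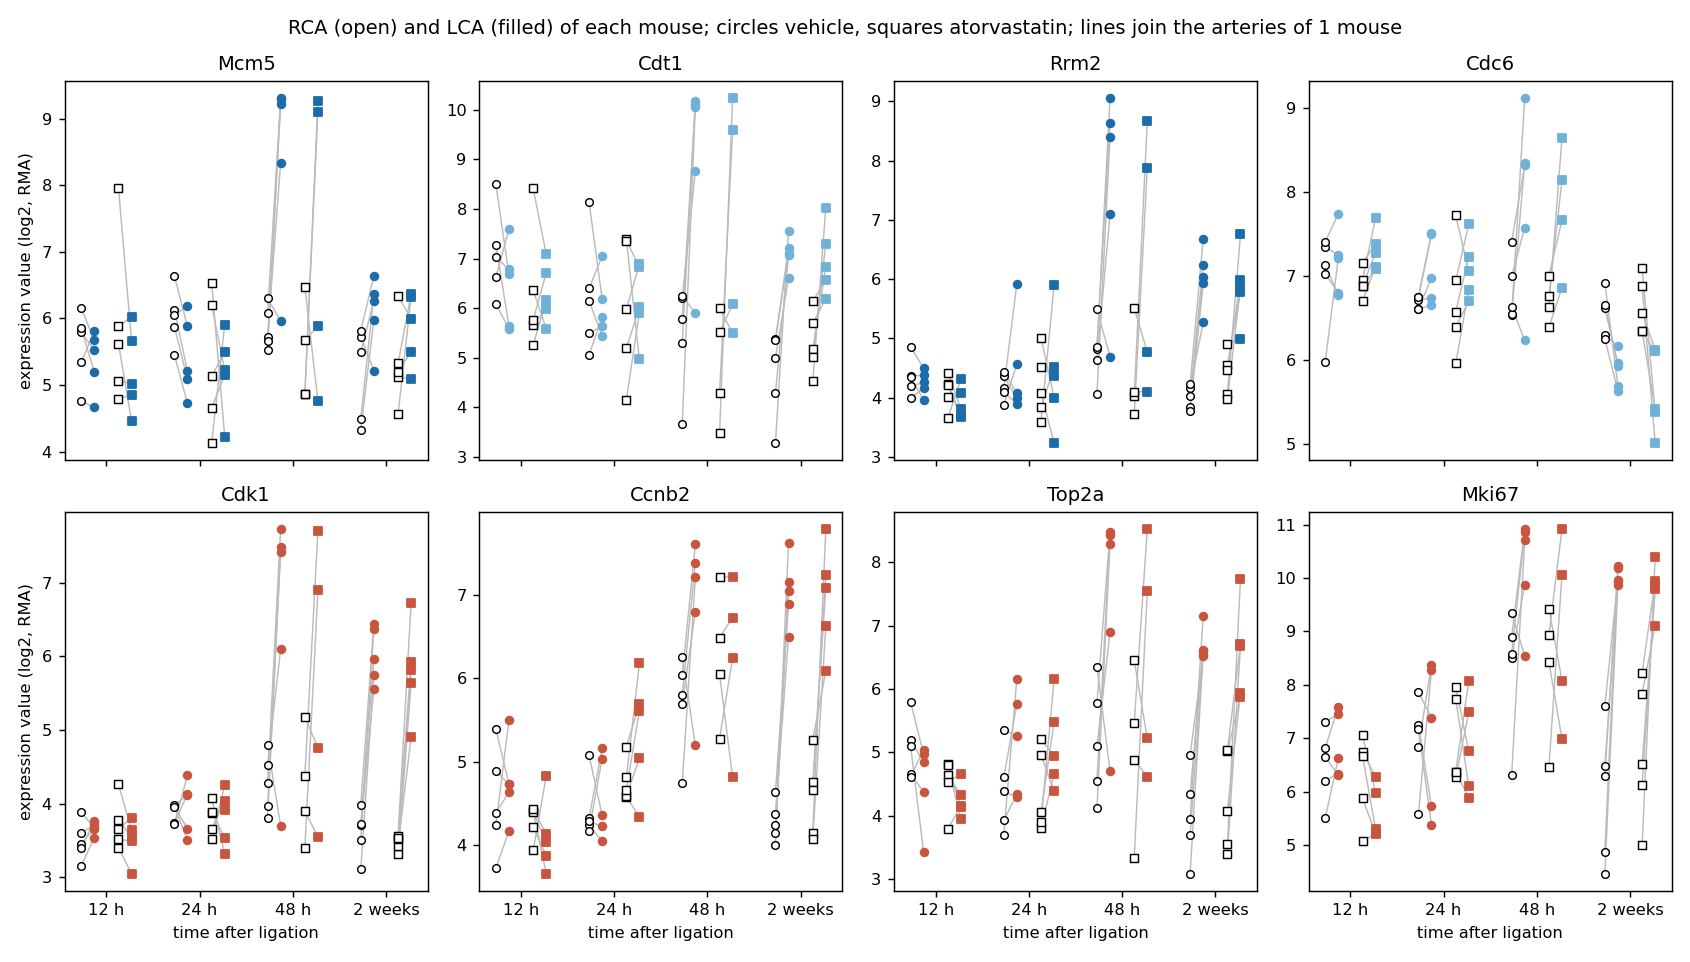
Expression value (log2, RMA) of 8 genes in the RCA (open) and LCA (filled) of each mouse by time, circles for vehicle and squares for atorvastatin, with a line joining the arteries of a mouse. Mcm5 and Cdt1 are far above the control in the LCA of most mice at 48 h and less so at 2 weeks, Cdc6 is below its control at 2 weeks, and the RCA means of Mki67 and Ccnb2 are highest at 48 h.

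Set side by side in each mouse, the replication and mitotic genes had opposite orders at 48 h and at 2 weeks. In vehicle mice 1 to 5 at 48 h, the mean difference over the 9 replication genes was 2.79, 1.65, 2.72, -0.16 and 2.54. Over the 18 mitotic genes it was 1.93, 0.83, 2.25, -0.51 and 2.29. The replication mean was the larger in 5 of 5 mice, also in mouse 4, where neither set was raised. At 2 weeks the replication means were 0.78, 0.59, 0.95, 0.9 and 0.84, and the mitotic means 1.9, 1.27, 1.7, 1.9 and 2.14. Here the mitotic mean was the larger in 5 of 5 mice.

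The same order held in atorvastatin-treated mice. At 48 h mice 6 to 9 had replication means of 3.05, 0.51, -0.29 and 2.94 and mitotic means of 1.72, -0.43, -0.51 and 1.92. At 2 weeks mice 6 to 10 had replication means of 1.01, 1.32, -0.01, -0.11 and 0.39 and mitotic means of 1.86, 2.56, 0.7, 1.48 and 1.56. In all, the replication mean exceeded the mitotic mean in 9 of 9 mice at 48 h, and the mitotic mean exceeded the replication mean in 10 of 10 mice at 2 weeks. At 24 h, where none of the listed genes was called, the mitotic mean was also the larger in 5 of 5 vehicle mice, with replication minus mitotic values of -0.79 to -0.12, and in 4 of 5 atorvastatin mice. No p is given for these means, since the genes were chosen with the results known. By gene, all 17 S phase genes had a larger difference at 48 h than at 2 weeks in both treatments, as had 3 of 18 mitotic genes in vehicle-treated (Bub1, Bub1b and Aurkb) and 4 of 18 in atorvastatin-treated mice.

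**Figure D3:**
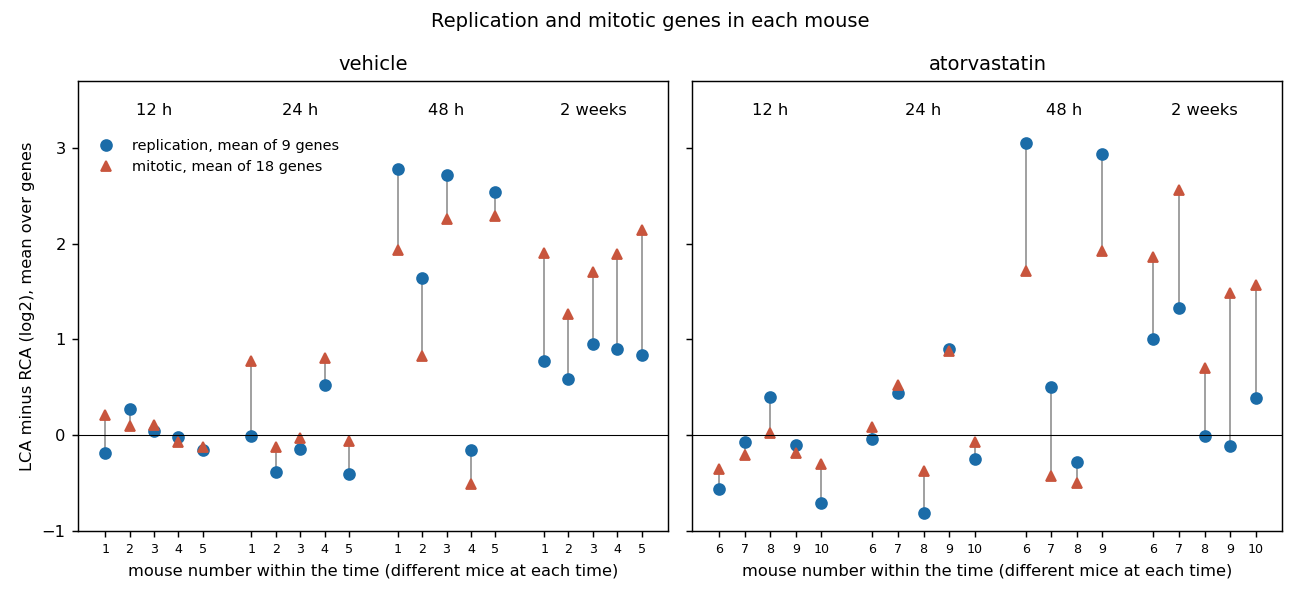
LCA minus RCA difference (log2) in each mouse (x axis, mice 1 to 5 vehicle and 6 to 10 atorvastatin, different animals at each time), averaged over 9 replication genes (circles) and 18 mitotic genes (triangles). At 48 h the circle is above the triangle in 9 of 9 mice, at 2 weeks the triangle is above the circle in 10 of 10, and vehicle mouse 4 and atorvastatin mice 7 and 8 lie at or below 0.51 in both sets at 48 h.

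**Figure D4:**
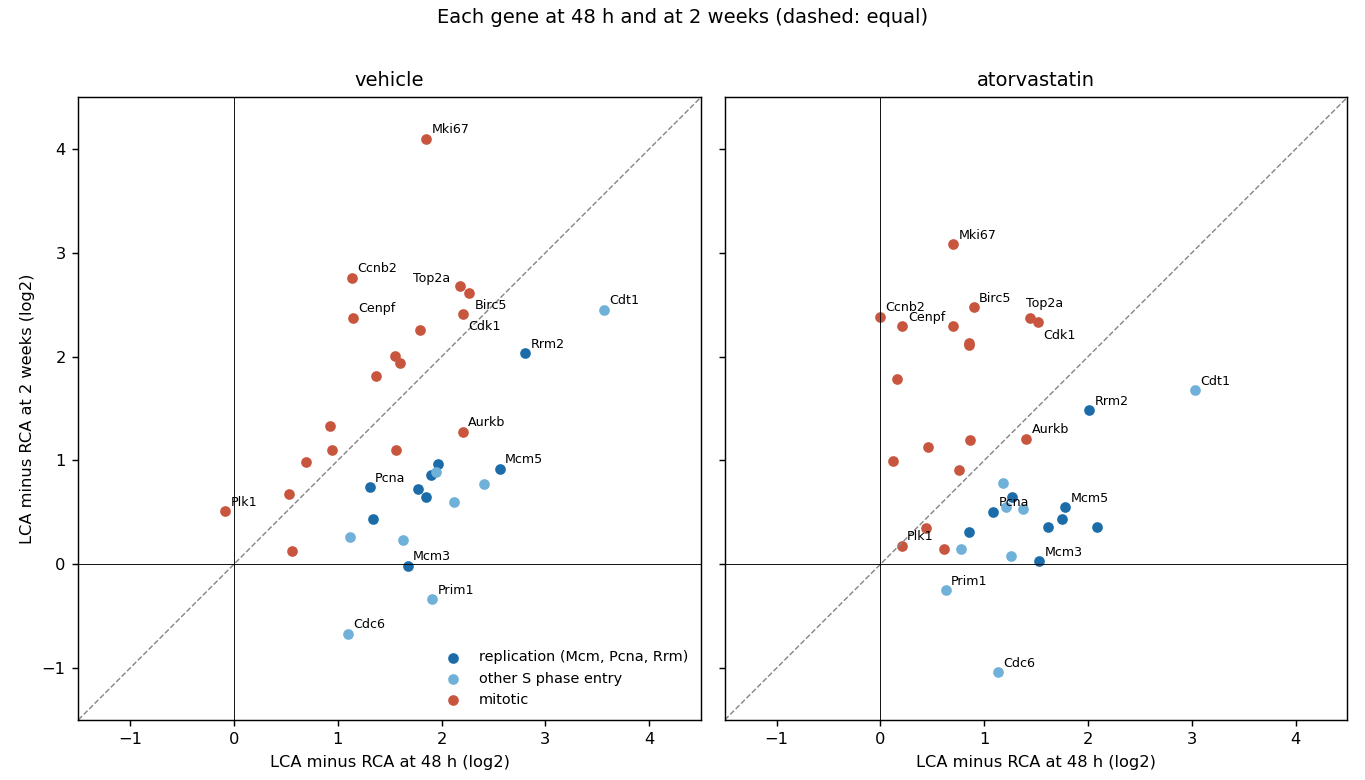
Mean LCA minus RCA difference (log2) of each of the 35 genes at 48 h (x axis) and 2 weeks (y axis), in vehicle-treated (left) and atorvastatin-treated mice (right), with a dashed line where both are equal. The 17 S phase genes (blue) lie below the line in both panels and 15 and 14 of 18 mitotic genes (red) above it.

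The control artery was not constant, either for the mitotic or for the S phase genes. In the RCA of vehicle-treated mice the mean level was highest at 48 h for 16 of 18 mitotic genes, and in atorvastatin-treated mice also for 16 of 18. Mki67 in the RCA averaged 6.5, 6.94, 8.33 and 5.94 at 12 h, 24 h, 48 h and 2 weeks with vehicle, and Ccnb2 4.53, 4.42, 5.7 and 4.28. In the LCA, Mki67 averaged 10.18 at 48 h and 10.04 at 2 weeks, so the larger difference at 2 weeks went with a lower control value. An F test over the 4 times (limma) called 13 of 35 genes in the RCA of vehicle-treated mice, against 17.2% of all genes. The mitotic genes among them were Ccnb2 (adjusted p = 0.00227), Kif20a (0.0162), Ccna2 (0.0173), Cdk1 (0.0339), Mki67 (0.0337), Cenpe (0.0292) and Bub1 (0.0498). The S phase genes among them were Mcm6, Prim1, Mcm4, Mcm2, Cdt1 and Pcna. With atorvastatin the F test called 5 of 35 (Birc5, Ccnb2, Mcm2, Mcm6 and Tpx2), against 3.29%.

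Most replication and S phase genes had their highest RCA mean earlier. It was at 12 h or 24 h for 15 of 17 S phase genes with vehicle and at 12 h for 13 of 17 with atorvastatin. The RCA mean was lowest at 2 weeks for 13 of 17 S phase genes with vehicle and 8 of 17 with atorvastatin. Over vehicle mice the replication mean in the RCA ran from 6.638 to 7.139 at 24 h and from 6.055 to 6.541 at 2 weeks. In the LCA it ran from 6.495 to 7.268 and from 6.925 to 7.203. The replication difference at 2 weeks with vehicle thus also went with a lower control value. Mcm6 in the RCA averaged 7.86, 7.64, 7.31 and 6.86 with vehicle (F test adjusted p = 0.00404). In the LCA the highest mean was at 48 h for 17 of 17 S phase genes in both treatments. For the mitotic genes it was at 48 h for 14 of 18 with vehicle and at 2 weeks for 13 of 18 with atorvastatin. The averages over each gene set show both arteries together.

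**Figure D5:**
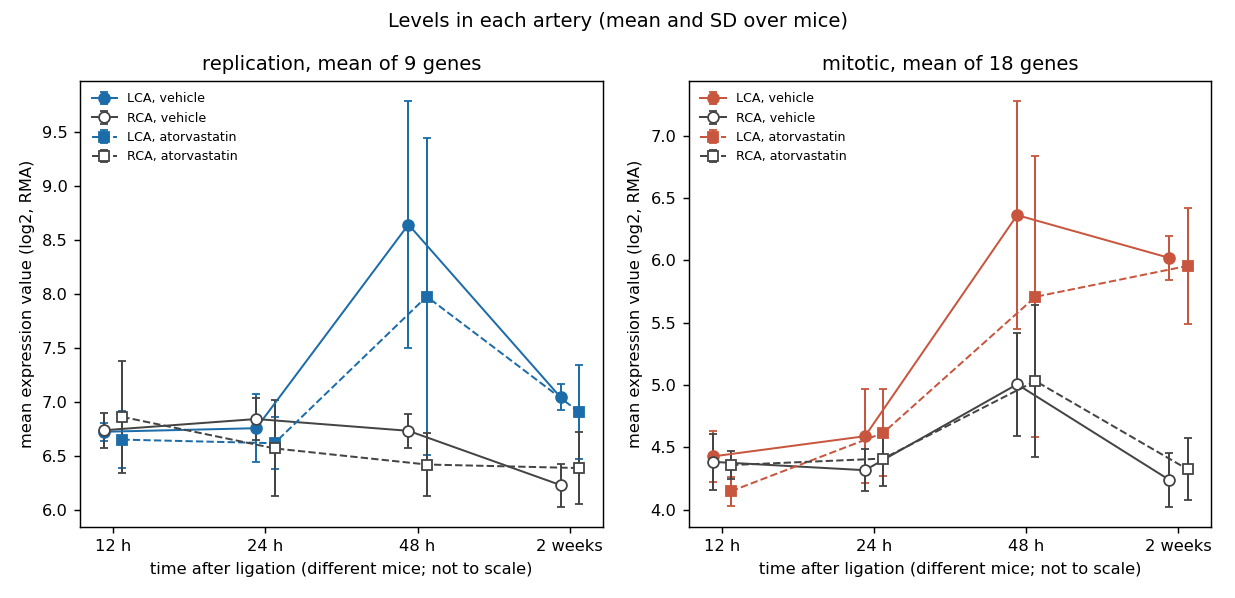
Mean expression value (log2, RMA) over 9 replication genes (left) and 18 mitotic genes (right) in the LCA (filled) and RCA (open) by time, circles and solid lines for vehicle, squares and dashed lines for atorvastatin, bars 1 SD over mice. With vehicle the mitotic mean in the RCA is 5.01 at 48 h and 4.24 at 2 weeks, and in the LCA 6.36 and 6.02; the replication mean in the LCA is 8.64 at 48 h and 7.04 at 2 weeks.

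The change of the artery difference between times was tested directly. From 12 h to 24 h limma called 0 of 35 genes in either treatment (0 at an unadjusted p under 0.05), beside 0% of all genes. From 24 h to 48 h with vehicle the difference rose for 18 of 35 genes and fell for 0, against 9.14% of all genes that rose and 8.56% that fell. Those were 9 of 9 replication genes, 5 of 8 other S phase genes and 4 of 18 mitotic genes (Aurkb, Birc5, Cdk1 and Kif11). The rise was 3.78 for Cdt1 (SE 1.09, adjusted p = 0.0144), 3.17 for Mcm5 (SE 0.85, adjusted p = 0.00879) and 2.09 for Mcm6 (SE 0.42, adjusted p = 0.00132). The count was 5 with the title code number as a block. It was 8 without mouse 1 of the 48 h group, 11 without mouse 3 or 5 and 27 without mouse 4. With atorvastatin the difference rose for 5 of 35, against 6.57% of all genes (7.84% fell), namely Mcm6 (1.92), Mcm3 (1.77), Mcm4 (1.48), Gins2 (1.46) and Pcna (1.23). That count was 1 without mouse 6 or 9 of the 48 h group, 9 without mouse 7, 12 without mouse 8, and 3 without mouse 6 or 8 of the 24 h group. The numbers of all genes called in these alternative fits, with either treatment, are not given here. These shifts therefore cannot be read as particular to the 35 genes.

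From 48 h to 2 weeks with vehicle the difference fell for 3 of 35 genes, against 1.25% of all genes. They were Prim1 (-2.25, adjusted p = 0.00141), Cdc6 (-1.77, adjusted p = 0.00821) and Mcm3 (-1.69, adjusted p = 0.0181). No gene of the set rose by the test (0 of 35, against 2.39% of all genes), and 14 of 35 had an unadjusted p under 0.05. The largest positive changes were 2.25 for Mki67 (adjusted p = 0.209) and 1.63 for Ccnb2 (adjusted p = 0.0673). The count of called genes was 0 with the title code number as a block, 5 without mouse 2 of the 48 h group and 11 without mouse 4. The numbers of all genes called in those fits are not given here, so these shifts cannot be read as particular to the 35 genes.

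With atorvastatin the difference fell between those times for Cdc6 (-2.17, adjusted p = 0.00139) and Mcm3 (-1.5, adjusted p = 0.0451), beside 2.29% of all genes. It rose for the mitotic genes Ccnb2 (2.39, adjusted p = 0.00592) and Cenpf, a kinetochore protein gene (2.08, adjusted p = 0.0172), beside 2.75%. These 4 calls became 7 without mouse 7 or 8 of the 48 h group, fits whose numbers of calls over all genes are not given here.

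At 48 h in atorvastatin-treated mice, 14 of 17 S phase genes and 3 of 18 mitotic genes (Cdk1, Aurkb and Bub1) were higher in the LCA and 0 lower, against 10.9% and 10.2% of all genes. The 4 mice split into pairs. Mcm5 in mice 6 to 9 read 9.1, 5.88, 4.76 and 9.26 in the LCA and 4.87, 5.68, 6.46 and 4.87 in the RCA, a difference of 1.78 (SE 0.67, adjusted p = 0.0553). Cdt1 read 10.23, 6.08, 5.5 and 9.59 against 3.48, 5.52, 6.0 and 4.29, a difference of 3.03 (SE 0.86, adjusted p = 0.0101). For both genes mice 6 and 9 were far above their controls and mice 7 and 8 near or below them.

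Rrm2 read 8.67, 4.1, 4.77 and 7.88 in the LCA and 4.03, 4.1, 5.51 and 3.72 in the RCA, a difference of 2.01 (SE 0.66, adjusted p = 0.0255). Mcm2, with LCA values of 7.9, 4.63, 3.72 and 7.23 and RCA values of 4.09, 3.98, 3.54 and 3.5, was higher in all 4 mice (2.09, SE 0.49, adjusted p = 0.00207). Mcm6 read 9.74, 7.56, 7.53 and 9.59 against 7.21, 7.2, 7.15 and 6.41, a difference of 1.61 (SE 0.34, adjusted p = 0.000639), with no overlap. Mcm6, Mcm4 and Bub1 were the 3 of 35 genes in which every LCA value was above every RCA value, beside 5.68% of all genes. Pcna read 11.69, 10.03, 10.4 and 11.4 against 10.03, 9.48, 10.08 and 9.59, a difference of 1.08 (SE 0.24, adjusted p = 0.00115).

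Cdc6 in the same mice read 8.64, 6.86, 7.66 and 8.14 in the LCA and 6.62, 6.39, 7.0 and 6.76 in the RCA, a difference of 1.13 (SE 0.32, adjusted p = 0.00905). Ccne1 read 6.28, 4.29, 4.82 and 6.01 against 4.82, 4.3, 4.46 and 4.72, a difference of 0.78 (SE 0.27, adjusted p = 0.034). Both genes were called with the arteries overlapping. Cdk1 read 7.71, 3.55, 4.76 and 6.9 against 4.38, 3.89, 5.17 and 3.4, a difference of 1.52 (SE 0.52, adjusted p = 0.0324). Aurkb read 7.31, 3.15, 4.1 and 6.23 against 3.83, 3.49, 4.52 and 3.31, a difference of 1.41 (SE 0.5, adjusted p = 0.0395). In these mitotic kinase genes, too, mice 6 and 9 carried the difference.

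Most mitotic genes were not called in this group. Mki67 read 10.92, 6.99, 8.07 and 10.06 in the LCA and 8.93, 8.43, 9.43 and 6.46 in the RCA, a difference of 0.7 (SE 0.76, adjusted p = 0.593). Ccnb2 read 7.21, 4.81, 6.72 and 6.24 against 7.21, 6.05, 6.49 and 5.28, a difference of -0.01 (SE 0.4, adjusted p = 0.992). For Ccnb2 both arteries of mouse 6 had the highest values, and the arteries overlapped throughout. The differences were 1.44 (SE 0.69, adjusted p = 0.148) for Top2a, 0.9 (SE 0.49, adjusted p = 0.218) for Birc5 and 0.46 (SE 0.21, adjusted p = 0.129) for Cenpe. By mouse they were 3.06, -0.27, -1.24 and 4.21 for Top2a, 1.91, -0.84, -0.38 and 2.91 for Birc5 and 0.46, -0.02, 0.32 and 1.08 for Cenpe in mice 6 to 9, again with mice 6 and 9 on top.

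The 17 calls became 4 without mouse 6 and 5 without mouse 9, beside 1930 and 2026 of all 17097 genes. Only Mcm3, Mcm4, Mcm6 and Pcna were called whichever mouse was left out. With the title code number as a block 6 were called (2160 of all 17097 genes), and in a fit to the 4 mice alone 0 (2 of all 17097 genes). Macrophage markers were higher for 10 of 12 genes and neutrophil markers for 6 of 9, with mean levels of 5.49 to 7.91 and 4.33 to 6.76 in the LCA and 4.0 to 4.92 and 3.63 to 3.76 in the RCA. In mice 7 and 8, with the 2 lowest replication means, the macrophage mean differed by 1.39 and 3.52 and the neutrophil mean by 0.7 and 1.57; their part in the result was not tested.

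At 2 weeks in atorvastatin-treated mice 14 of 18 mitotic genes were higher and 0 lower, and of 17 S phase genes 0 were higher and 1 was lower, against 10.1% of all genes called higher and 11% lower. Mki67 in mice 6 to 10 read 9.86, 10.4, 9.1, 9.94 and 9.79 in the LCA and 6.11, 4.99, 7.83, 8.22 and 6.51 in the RCA, a difference of 3.08 (SE 0.68, adjusted p = 0.000754). Birc5 read 6.76, 7.79, 5.76, 6.87 and 6.42 against 4.08, 4.0, 4.51, 4.42 and 4.2, a difference of 2.48 (SE 0.44, adjusted p = 5.19e-05). Neither gene overlapped between the arteries, and mouse 8 had the smallest difference in both.

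Ccnb2 read 7.08, 7.79, 6.08, 7.24 and 6.62 in the LCA and 4.75, 4.14, 5.26, 4.65 and 4.07 in the RCA, a difference of 2.38 (SE 0.36, adjusted p = 4.18e-06). Cdk1 read 5.64, 6.72, 4.91, 5.81 and 5.92 against 3.31, 3.56, 3.43, 3.52 and 3.53, a difference of 2.33 (SE 0.46, adjusted p = 0.000213). Top2a read 6.68, 7.74, 5.87, 6.71 and 5.94 against 3.39, 3.54, 5.01, 5.03 and 4.07, a difference of 2.38 (SE 0.62, adjusted p = 0.00461). The RCA values of Cdk1 lay within a narrow band and every LCA value was above them. Cenpe differed by 1.26, 1.58, 0.59, 0.96 and 1.25 in mice 6 to 10 (1.13, SE 0.19, adjusted p = 2.28e-05) and Aurkb by 1.18, 2.41, 0.21, 1.39 and 0.86 (1.21, SE 0.44, adjusted p = 0.0481). The calls of Aurkb and of Nusap1 were lost without mouse 6, 7, 9 or 10, and Nusap1, called higher, read -0.26 (adjusted p = 0.317) with its second probe set. The calls of Aurkb and Top2a were also lost with their second probe sets, and that of Top2a without mouse 7 (limma, adjusted p = 0.0515). In all, 17 of 35 genes had every LCA value above every RCA value, beside 9.69% of all genes.

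Cdc6 was lower in the LCA of these mice. It read 6.12, 6.1, 5.41, 5.38 and 5.01 in the LCA and 6.56, 6.34, 6.34, 7.09 and 6.88 in the RCA, so that every LCA value lay below every RCA value, and the difference was -1.04 (SE 0.28, adjusted p = 0.00668). The call was lost without mouse 9 or 10. For the other replication genes named above, the differences in mice 6 to 10 were 1.76, 1.04, -0.02, -0.34 and 0.3 for Mcm5, 0.6, 1.24, -0.07, -0.06 and 0.05 for Mcm6, 0.83, 1.14, 0.07, 0.06 and 0.44 for Pcna and 0.25, 0.52, 0.13, -0.31 and 0.14 for Ccne1, with adjusted p between 0.0916 and 0.737. Rrm2 (1.24, 2.69, 0.09, 1.51 and 1.9, adjusted p = 0.0699) and Cdt1 (1.66, 3.5, 0.5, 0.43 and 2.28, adjusted p = 0.128) were above the control in 5 of 5 mice without being called. Macrophage markers were higher for 11 of 12 genes, smooth muscle markers for 7 of 7 and T cell markers for 2 of 6. The macrophage mean was 7.91 to 8.57 in the LCA and 4.13 to 4.91 in the RCA, and the smooth muscle mean 9.19 to 10.16 and 5.75 to 6.42. The T cell mean differed by 0.67, 1.18, -0.68, -0.23 and 0.55 in mice 6 to 10, below 0 in mice 8 and 9, the mice whose replication means were below 0. Among vehicle mice at 2 weeks, mouse 4 had the lowest T cell difference (0.7), but its replication mean of 0.9 was below only that of mouse 3. The part of the marked cells in the result was not tested.

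Atorvastatin and vehicle were compared directly in the artery difference. Limma called 0 of 35 genes at each of the 4 times and in their mean, with 0, 0, 4 and 0 genes at an unadjusted p under 0.05 at 12 h, 24 h, 48 h and 2 weeks and 2 in the mean, against 0.00585%, 0%, 0%, 0.0117% and 0% of all genes called. At 48 h the difference was smaller with atorvastatin for 30 of 35 genes, with a median of -0.7. The mean difference over the 35 genes was 2.347, -0.008, -0.443 and 2.302 in atorvastatin mice 6 to 9. In vehicle mice 1 to 5 it was 2.430, 1.143, 2.515, -0.318 and 2.430. The genes moved together within a mouse, so the 30 are not separate results. The 4 genes at an unadjusted p under 0.05 at 48 h were Prim1 (-1.28, 95% interval -2.2 to -0.36), Birc5 (-1.37, -2.72 to -0.02), Kif20a (-1.21, -2.35 to -0.07) and Ccnb2 (-1.14, -2.25 to -0.04), all with an adjusted p of 0.956. For Mki67 at 48 h the interval ran from -3.22 to 0.91 and for Mcm5 from -2.61 to 1.05. With a median width of 2.21 over the 35 genes, the intervals are wide, and similarity of the treatments is not shown. Within the LCA and within the RCA alone, limma called 0 of 35 genes at any time, with at most 4 at an unadjusted p under 0.05 (LCA, 48 h), against 0% of all genes in the LCA at each time and 0.0292%, 0%, 0% and 0.00585% in the RCA. The vehicle and atorvastatin arms have separate control arteries, and 16 and 2 genes were called higher at both 48 h and 2 weeks in them, for atorvastatin Cdk1 and Aurkb. The share of all genes called at both times was not counted, and these 2 counts do not compare the treatments. Of the 17 atorvastatin calls at 48 h, 4 held whichever mouse was left out.

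Further genes of the same pathways, listed for their function, were counted for comparison. Of 29 other replication genes 25 were higher and 0 lower at 48 h with vehicle (median 1.28), against 13.7% and 11.7% of all genes, led by Gins1, a GINS complex subunit (2.79), the chromatin assembly factor gene Chaf1b (2.52), the thymidine kinase gene Tk1 (2.17) and the flap endonuclease gene Fen1 (2.17). At 2 weeks 4 were higher and 0 lower (median 0.37), against 10.8% and 10.2% of all genes, namely Gins1 (1.65), the origin-firing kinase genes Dbf4 (1.52) and Cdc7 (1.38), and Tk1 (1.07). Of 33 other mitosis genes 23 were higher and 2 lower at 48 h (median 1.42), with Cep55, needed for the final cut between daughter cells (2.76), the condensin gene Ncapg (2.27), the checkpoint gene Mad2l1 (2.22) and Incenp (2.06) in front. At 2 weeks 21 were higher and 2 lower (median 1.44), led by the passenger complex gene Cdca8 (3.46), Cep55 (2.9), Cks2 (2.81) and Anln (2.67). The 2 lower ones at both times were Pttg1 (-0.41 and -0.3) and Cdc25b (-0.73 and -0.91), named after their values were seen.

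Of 29 cell cycle regulators 12 were higher and 3 lower at 48 h (median 0.46) and 6 higher and 3 lower at 2 weeks (median 0.29), and their share of lower genes was near that of all genes (11.7% and 10.2%). At 48 h the atypical E2F genes E2f8 (2.45) and E2f7 (1.59), Myc (1.87) and Cdk4 (1.34) were the largest. At 2 weeks they were Cdk6 (1.95), Myc (1.94), E2f8 (1.91) and, lower, Mycn (-1.3). With atorvastatin the replication, mitosis and regulator lists had 15, 9 and 6 genes higher and 1, 2 and 3 lower at 48 h, and 3, 18 and 5 higher and 1, 2 and 4 lower at 2 weeks, against 10.9% of all genes higher and 10.2% lower at 48 h and 10.1% and 11% at 2 weeks.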

How the data were processed

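Endothelium-enriched RNA from the left and right carotid artery of 39 mice was measured on 78 expression arrays. The values are log2 expression values made with RMA, per the submitters' processing notes, in the table the authors deposited; the sources used here give neither software versions nor a chip definition. The number of arrays per group (4 or 5) limits the precision. A label speaks of 4 batches without tying them to samples, so a batch could not be used as a term; the number in the title code, which is the same for the LCA and RCA of an animal, was tried as a block.

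Of 45118 probe sets, 81 were controls, 28898 were annotated to 1 gene symbol, 551 to several and 15588 to none. Each gene was represented by its probe set with the highest mean over 78 arrays; of the 35 genes described, 20 had more than 1 probe set. No filter on low values was applied. Differences between the arteries of a mouse were fitted with limma 3.58.1 (R 4.3.3, statmod 1.5.0) in 8 groups that share 1 estimate of the spread, with Benjamini-Hochberg adjustment over 17097 genes and a threshold of 0.05; levels in each artery were fitted in the same way. The pairing comes from the labels, which give both arteries of an animal. As a check, the deviations of the arteries of a mouse from their group means correlated with a median r of 0.09 (range -0.34 to 0.51), over 0.1 in 19 of 39 mice. On simulated data for vehicle at 48 h (17097 genes, 200 changed in each of 5 runs), the fit recovered 82.4% of changes of 1 and 96.6% of changes of 2 on the log2 scale. The simulated noise had 1 spread per gene for all 8 groups, whereas the real mice at 48 h differed more from one another in many of the 35 genes. These shares therefore do not tell how many changes in the 35 genes would be found at 48 h. Mice are separate animals.

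All 35 genes are named by the list. Of the other pathway genes, up to 4 called genes with the largest change per list were named for vehicle at 48 h and 2 weeks. The members, the other pathway lists and the marker lists (endothelial, macrophage, neutrophil, T cell, B cell, smooth muscle, fibroblast and erythroid) were chosen with earlier results of these data known. Erythroid markers were 0 higher and 0 lower of 4 (limma, 0 at an unadjusted p under 0.05) in vehicle-treated mice at 48 h and at 2 weeks. Alternatives were other probe set rules, a filter on low values, renormalization, array median centring, a robust trend prior, the title code block, no pairing, each comparison's mice alone, and leaving out each mouse.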

Additional observations from a re-analysis of the deposited data

Results flagged for a closer look

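A single mouse stood far from the others in its group for 2 of 76 gene and group combinations tested with Dixon's criterion, which chance flags in about 1 in 20 groups. For Mcm5 at 48 h with vehicle, the difference in mouse 4 was -0.346, against 2.61 to 3.77 in the other 4 mice. For Rrm2 at 2 weeks with vehicle, the difference in mouse 2 was 1.11, against 2.17 to 2.46 in the others.

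The artery difference itself changed between times by a direct test in limma. It did so for 18 genes from 24 h to 48 h and for 3 genes from 48 h to 2 weeks with vehicle, and for 5 and 4 genes with atorvastatin.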

How the results depend on the processing

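Counts of genes called are given here out of 35, or of 17 S phase and 18 mitotic genes. Fitting the mice of a comparison alone gave 1 gene at 24 h with vehicle and 1 with atorvastatin, 6 at 48 h with vehicle (6 S phase, 0 mitotic), 0 at 48 h with atorvastatin (0 S phase, 0 mitotic), and 12 and 5 S phase genes at 2 weeks with vehicle and atorvastatin. At 48 h and 2 weeks these fits called 1436 and 3133 of all 17097 genes with vehicle and 2 and 4018 with atorvastatin. Their numbers over all genes at 24 h are not given here. With the title code block the counts over all genes were 2848 and 2804 with vehicle and 2160 and 3069 with atorvastatin. The title code number as a block gave 8 mitotic genes at 48 h with vehicle, 6 genes at 48 h with atorvastatin (6 S phase, 0 mitotic), 2 S phase genes at 2 weeks with atorvastatin, 5 genes for the change from 24 h to 48 h and 0 for that from 48 h to 2 weeks with vehicle. That last count was 1 with the second probe set and 5 with the filter on low values. Without the replicate block, that is without pairing the arteries, 31 and 20 genes were called at 48 h and 2 weeks with vehicle. With atorvastatin 19 and 15 were called. The unpaired fit called 4134 and 3405 of all 17097 genes with vehicle and 3293 and 3381 with atorvastatin. Its S phase count at 2 weeks with atorvastatin was 2, as with the mean of all probe sets or the second probe set. Nusap1 at 2 weeks with atorvastatin turned to -0.26 with its second probe set. Leaving out each mouse gave 25 to 34 genes (8 to 17 mitotic) at 48 h and 14 to 18 (2 to 3 S phase, 12 to 15 mitotic) at 2 weeks with vehicle. With atorvastatin it gave 4 to 23 (4 to 17 S phase, 0 to 6 mitotic) and 11 to 16 (0 to 2 S phase, 10 to 14 mitotic). Of all 17097 genes it gave 2807 to 5003 and 2580 to 3680 with vehicle, and 1930 to 4418 and 2726 to 3203 with atorvastatin. For the changes from 24 h to 48 h and from 48 h to 2 weeks it gave 8 to 27 and 2 to 11 with vehicle and 1 to 12 and 3 to 7 with atorvastatin. The numbers of all genes in the alternative fits of these changes are not given here. The replication mean less the mitotic mean ranged from 0.47 to 0.62 at 48 h and from -1.04 to -0.89 at 2 weeks with vehicle, and from 0.72 to 1.1 and -1.21 to -0.99 with atorvastatin. The cause of these shifts was not tested.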
